A study of Mus musculus with 40 samples.

Results

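Slpi1U1 is 1 of 4 lines of 4T1, a cell line from a mouse mammary carcinoma, that carry a shERWOOD-designed short hairpin RNA against Slpi, the gene of a secreted inhibitor of leukocyte serine proteases. A short hairpin RNA is processed in the cell into a small RNA that lowers the mRNAs it pairs with. The 2 libraries of Slpi1U1 were set against the 6 libraries of Slpi1U2, Slpi2 and Slpi4, 2 per line, out of 20 libraries from 10 hairpin lines in the series. That these 4 are the shERWOOD designs was inferred from their names and their selection drug. The fifth line of the same table, 66708, was left out because it was selected with another drug. The series asked how far hairpins disturb genes other than their target, and this comparison shows how 1 hairpin line differs from 3 others directed at the same gene.

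All 4 lines were transduced at a multiplicity of 0.3, selected with 500 µg/ml hygromycin for about 10 days, and grown in high-glucose medium supplemented with serum and non-essential amino acids, per the labels' protocols. They share the parental cells and the intended target and differ by hairpin, so the hairpin and the history of its transduced population cannot be told apart. Cells without a hairpin were not analysed here, and the lines directed at the gene Mgp are in a table normalized separately. The labels list 4 samples per hairpin and the table has 2 columns, and nothing says whether the columns are separate cultures. The p-values therefore reflect only how far these libraries differ, which may be technical spread.

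Many of the genes that were lower in Slpi1U1 belong to the amino acid branch of the integrated stress response. When amino acids run short or unfolded protein builds up, kinases phosphorylate the initiation factor eIF2, most translation slows, and the mRNA of the transcription factor ATF4 is translated more. ATF4 pairs with C/EBP-family proteins on short composite sites and switches on genes that make, import and load amino acids onto tRNA, while some of its targets, such as Trib3, act back on it. Tumour cells are known to rely on this program when they synthesise more protein than their nutrient supply sustains.

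Values below are scaled reads, which are reads divided by the authors' library size factor, or differences on the authors' deposited log2-like scale. On that scale a doubling from 100 to 200 scaled reads is a difference of 0.36, one from 1000 to 2000 is 0.77, and one from 5000 to 10000 is 0.94, so differences understate the change of weakly expressed genes. Folds are ratios of mean scaled reads, taken against the mean of the 3 other line means unless 1 line is named. Adjusted p-values are from limma's moderated test with Benjamini-Hochberg adjustment over 9499 genes, and calls were made below 0.05.

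Several of the genes called lower are known ATF4 targets, and 4 of them whose windows hold the motif that ATF4 is known for are shown, from RefSeq windows on GRCm38.p6. The capitals mark the C/EBP-ATF composite motif, searched as TGATGNAA on both strands, so that TTGCATCA, TTACATCA and TGATGAAA are among the matches. Chac1 (chr2:119350992-119351241, plus strand) and Pck2 (chr14:55540016-55540265, plus strand) are shown up to the base before their start. So is Slc7a11 (chr3:50443614-50443863, minus strand), and Asns (chr6:7693225-7693459, minus strand) is shown up to the end of its match. Each reads 5′ to 3′ on the gene's strand.
Chac1: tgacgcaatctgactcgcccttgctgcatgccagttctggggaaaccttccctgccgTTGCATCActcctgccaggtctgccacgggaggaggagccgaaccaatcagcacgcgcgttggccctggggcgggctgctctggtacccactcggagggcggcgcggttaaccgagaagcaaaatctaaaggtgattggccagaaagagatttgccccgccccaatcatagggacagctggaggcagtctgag
Pck2: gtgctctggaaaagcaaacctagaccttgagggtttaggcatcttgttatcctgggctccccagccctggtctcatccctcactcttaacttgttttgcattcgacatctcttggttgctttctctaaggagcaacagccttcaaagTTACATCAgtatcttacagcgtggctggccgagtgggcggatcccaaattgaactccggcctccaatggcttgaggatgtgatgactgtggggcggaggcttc
Slc7a11: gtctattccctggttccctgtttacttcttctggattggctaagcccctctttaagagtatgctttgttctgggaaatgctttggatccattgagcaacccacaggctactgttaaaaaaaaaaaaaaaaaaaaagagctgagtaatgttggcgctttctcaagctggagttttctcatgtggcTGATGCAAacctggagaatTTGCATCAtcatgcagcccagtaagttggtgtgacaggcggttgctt
Asns: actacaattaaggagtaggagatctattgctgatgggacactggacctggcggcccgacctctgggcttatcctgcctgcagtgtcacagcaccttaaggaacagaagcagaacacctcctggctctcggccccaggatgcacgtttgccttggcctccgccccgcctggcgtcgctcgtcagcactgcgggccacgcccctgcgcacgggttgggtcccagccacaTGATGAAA

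The match begins 193 bases before the start in Chac1, 103 in Pck2 and 23 in Asns, and Slc7a11 has 2 matches, 66 and 47 bases before. In Trib3 the match lies after the start, at base 15. Starts here are those of RefSeq; the GENCODE model of Asns, whose coordinates are given below, begins further upstream, so that the Asns match lies within it. The genes shown were picked for their matches: no match was found for Ddit4 and Gpt2, which differed more than Pck2, Slc7a11 and Asns, or for Atf4. Of the 36 amino acid stress genes called lower, 30 had a window in the RefSeq table. A gene without a window cannot show a match. Over windows of 300 bases (250 before and 50 after each start), the motif was found in 3.97% of all 32851 windows and in 2.04% of the 9782 windows of tested genes. Among genes called lower in Slpi1U1 it was found in 18.5% of 92 windows, with 72 of 87 genes matched to the RefSeq table. Of these 17 windows 13 belonged to the amino acid stress genes described below (35.1% of their 37 windows) and 4 to other genes called lower (7.27% of 55 windows). Stress genes that were tested and not called had it in 9.52% of 21 windows, and none of the 54 windows of genes called higher had it. A match is a run of letters in a window and not a measured binding site.

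The 8 libraries held 12176854 to 20374180 reads, with 15542120 and 13611897 in Slpi1U1. Slpi1U1 had the fewest genes with any read, 15989 and 15831, against 16483 to 17793 in the other libraries, and testing was limited to genes averaging 121 scaled reads or more. Whether this difference in detected genes plays a part in the results was not tested. The replicates of a line were not copies of each other: their chi-square per degree of freedom was 3.2 to 6.28, largest in Slpi1U1, where sampling noise alone gives about 1. Epithelial markers were expressed in every library, with Krt18 at 11000 to 12800 scaled reads, Cdh1 at 7290 to 7960 and Epcam at 1050 to 1180. None of the 7 epithelial markers tested was called between Slpi1U1 and the other lines, and the eighth, Cldn7, was too low to test. Mesenchymal genes were high as well, with Vim averaging 76300 in Slpi1U1 and 74900 in the other lines, and Fn1 78600 and 80900. In the longer lists used below, the epithelial genes Krt5, Esrp1 and Ovol1 were too low to test. So were the mesenchymal genes Cdh2, Zeb1, Snai2, Col6a2 and Tgfbi. Of 12 markers of leukocytes, endothelium and fibroblasts none exceeded 13.5 scaled reads, their sum was 23.9 to 34.9 per library, and 3 to 6 of them were at 0. In bulk RNA, fewer cells with a transcript and less transcript per cell cannot be told apart.

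Slpi itself, on the minus strand of chromosome 2 (164354070 to 164389095, GRCm38), was lowest in Slpi1U1 by a margin that did not pass. Slpi1U1 had 759 and 811 scaled reads, Slpi2 791 and 809, Slpi1U2 863 and 937, and Slpi4 1027 and 992. The Slpi1U1 and Slpi2 libraries overlapped, and Slpi4 lay above all others. The difference from the 3 other lines was −0.13 ± 0.04 (SE; limma, adjusted p = 0.1092), and by pairs Slpi1U1 was lower than Slpi4 (−0.25, limma adjusted p = 0.01123) and not separated from Slpi1U2 (−0.13, 0.3275) or Slpi2 (−0.02, 0.8687). In CPM, which scales each library's reads to the same total, Slpi stood at 48.2 ± 1.85 in Slpi1U1 (SD, n = 2) and at 48.6 to 60.9 in the other 3 lines. The 4 shERWOOD lines directed at Mgp, in a table normalized separately and not tested against this one, had 453 to 586 CPM. The 2 lines selected with puromycin lay between, also untested, with 151 CPM in 66708 and 140 CPM in 88943, which is in the Mgp table.

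Chac1, the enzyme that breaks down glutathione, was the gene that differed most on the deposited scale, while in folds of scaled reads Trib3, below, exceeded it. It is on chromosome 2 (119351229 to 119354381, plus strand, GRCm38). Slpi1U1 had 349 and 406 scaled reads, Slpi4 961 and 1038, Slpi1U2 1467 and 1374, and Slpi2 1965 and 1869. The 4 lines did not overlap, and the gap between Slpi1U1 and its nearest neighbour, Slpi4, was wider than any gap between replicates. Chac1 was 3.83-fold lower than the mean of the other lines (−1.24 ± 0.04, SE; limma, adjusted p = 6.976e-10). Against single lines it was 2.65-fold lower than Slpi4, 3.77-fold lower than Slpi1U2 and 5.08-fold lower than Slpi2, all 3 past the threshold.

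Trib3, a pseudokinase that binds ATF4 and restrains it, lies on chromosome 2 as well (152337422 to 152344032, minus strand). It had 98.9 and 130 scaled reads in Slpi1U1, 308 and 327 in Slpi4, 400 and 342 in Slpi1U2, and 686 and 698 in Slpi2. All 6 comparison libraries were above both Slpi1U1 libraries. The fold was 4.02 (−0.85 ± 0.04, SE; limma, adjusted p = 9.369e-08), and the difference was −0.60 against Slpi4, −0.72 against Slpi1U2 and −1.25 against Slpi2, each past the threshold.

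Asns, asparagine synthetase, lies on chromosome 6 (7675169 to 7693254, minus strand) and is far more abundant. It had 3236 and 2946 scaled reads in Slpi1U1, 3770 and 3596 in Slpi4, 3892 and 4140 in Slpi1U2, and 5540 and 5634 in Slpi2. Slpi1U1 was again lowest without overlap, by a smaller margin of 1.43-fold (−0.44 ± 0.04, SE; limma, adjusted p = 2.905e-05). It was 1.19-fold lower than Slpi4 (limma adjusted p = 0.03659), 1.3-fold lower than Slpi1U2 (0.00565) and 1.81-fold lower than Slpi2 (3.966e-07). All 3 marker genes had the same order of line means, Slpi1U1 below Slpi4 below Slpi1U2 below Slpi2.

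**Figure D1:**
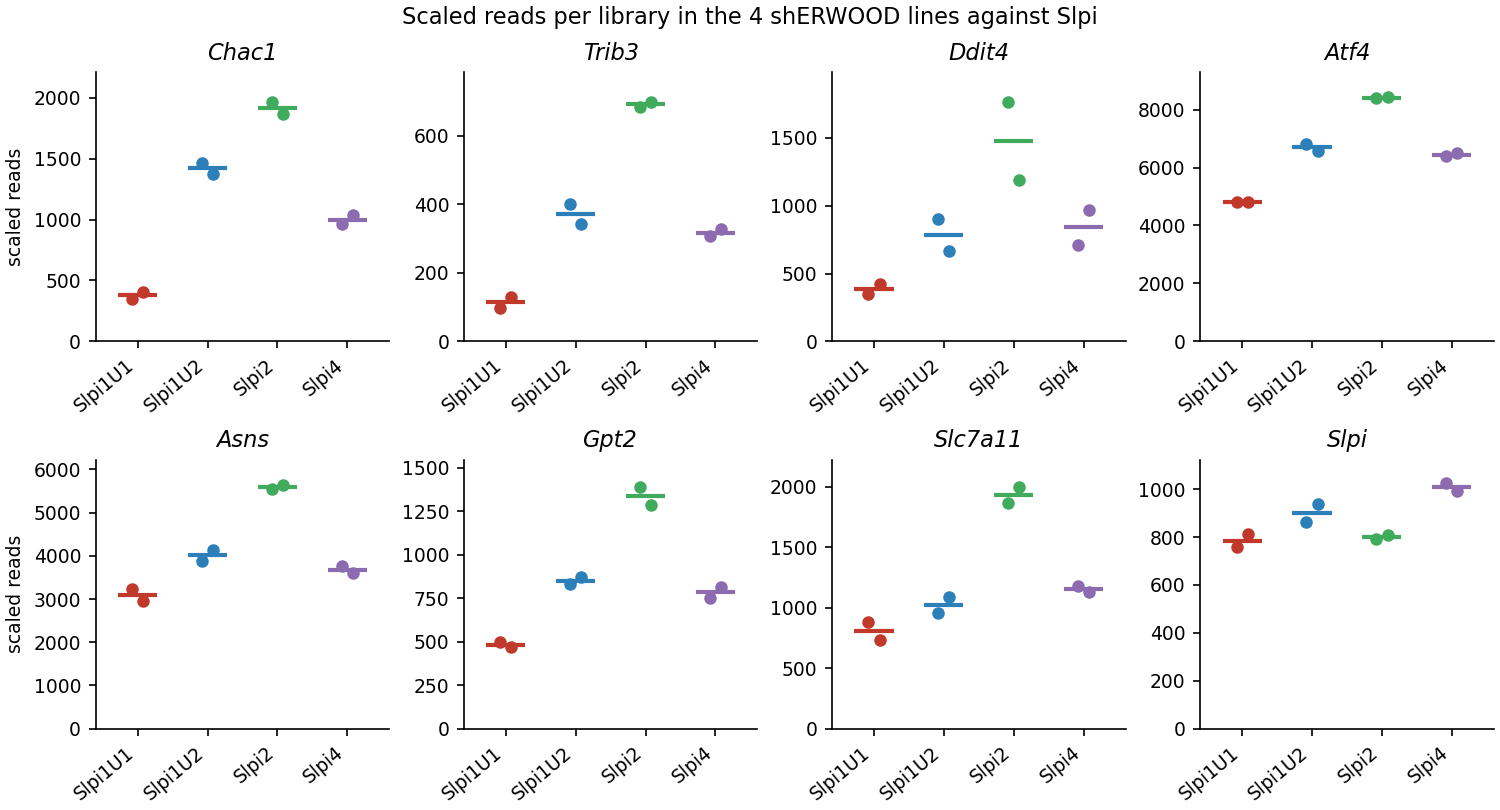
Scaled reads of 8 genes (vertical axes, linear from 0, a scale for each gene) in the 4 Slpi-directed shERWOOD lines (horizontal axes). Points are the 2 libraries of a line and bars their mean. Slpi1U1 is lowest in 7 of the panels without overlap, while for Slpi its libraries overlap those of Slpi2.

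Across all genes, 140 of 9499 were called (1.47%; limma, Benjamini-Hochberg), 87 lower in Slpi1U1 (0.916%) and 53 higher (0.558%), and 1559 had an unadjusted p under 0.05. Few differences were large, as 5 called genes were at least 2-fold lower, 20 at least 1.5-fold lower, and none at least 1.5-fold higher. Both Slpi1U1 libraries lay below all 6 others for 531 genes (5.59%) and above them for 465 (4.9%). If all libraries were alike, 7.14% of genes would lie outside the other 6, both directions together. Of the 531 genes 74 were also called lower (0.779% of all tested). Of the 465 genes 34 were also called higher (0.358%), which gives 108 genes or 1.14% together. Slpi1U1 was not the line with the most calls: tested in the same way against the mean of the other 3, Slpi1U2 had 86 (0.905%), Slpi2 318 (3.35%) and Slpi4 458 (4.82%), comparisons that share all their libraries.

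The total of 140 depended on single libraries. It was 61 without Slpi1U1 replicate 1 and 554 without Slpi1U1 replicate 2, and 40 when the Slpi2 line was left out. With each hairpin reduced to 1 mean, so that the spread came from 3 lines and 1 line stood alone, limma called no gene.

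**Figure D2:**
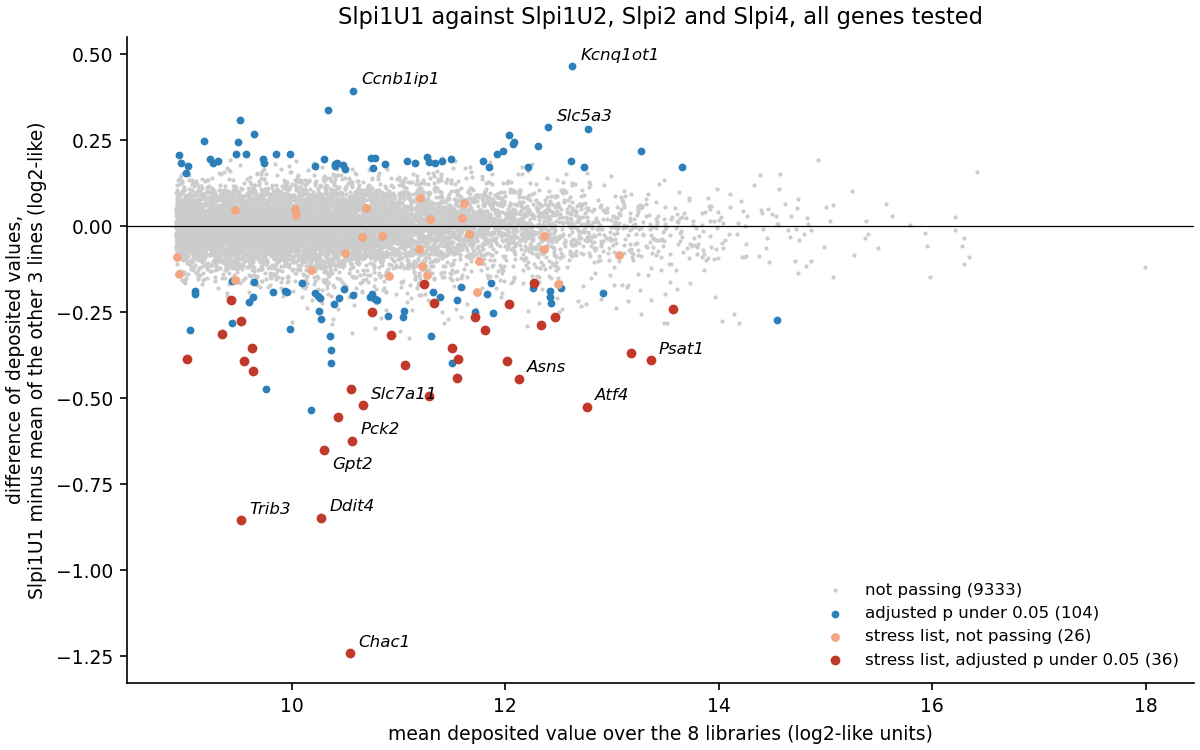
Difference between Slpi1U1 and the mean of the other 3 lines (vertical axis, deposited log2-like units) against the mean deposited value over the 8 libraries (horizontal axis) for 9499 genes. Blue points are other genes that passed, and red and orange points are the 62 tested members of the 4 amino acid stress lists; the 36 red ones passed at an adjusted p under 0.05, all of them lower in Slpi1U1, and Chac1 lies lowest at −1.24.

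The stress genes were followed in 4 lists with 72 members: regulators, synthesis enzymes, transporters and cytosolic aminoacyl-tRNA synthetases. The lists were chosen with earlier results of these data known, so their shares describe these libraries and are not an independent test. Of the 62 members that could be tested, 36 were called lower and 0 higher, against 0.916% lower among all genes tested. They made up 36 of the 87 genes called lower. Their median difference was −0.233, against −0.001 over all genes tested. Slpi1U1 had the lowest of the 4 line means for 48 of the 62 (77.4%, against 26% of all genes tested), and Slpi2 the highest for 53. When the Slpi2 line was left out, 21 of the 62 were called lower, against 0.295% of all genes tested (28 of 9499). Leaving out 1 library at a time gave 32 to 35, while the share of all genes called lower ran from 0.505% (48 genes, without Slpi1U1 replicate 1) to 4.61% (438 genes, without Slpi1U1 replicate 2).

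Among the regulators, 12 of 17 tested genes were called lower (70.6%, against 0.916% of all genes tested), with a median of −0.38. Without the filter on low values 8 of 21 were called lower, against 0.167% of all genes tested. Atf4 (chromosome 15, 80255184 to 80257541, plus strand) had 4813 and 4827 scaled reads in Slpi1U1, 6386 and 6485 in Slpi4, 6827 and 6567 in Slpi1U2, and 8402 and 8419 in Slpi2. Its mRNA was 1.49-fold lower than in the other lines (−0.52 ± 0.04, SE; limma, adjusted p = 1.38e-06), with no overlap, and it passed against each line. Of all genes tested, the 3 whose levels over the 8 libraries followed Chac1 most closely were Atf4 (Pearson r = 0.974), Rabggtb (0.973), a subunit of the enzyme that prenylates Rab proteins, and Trib3 (0.972), where libraries of a line share their cells. Rabggtb itself differed by only −0.10 (limma, adjusted p = 0.2054), and 6.24% of its exon bases are shared with small nucleolar RNA genes.

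Ddit4, an inhibitor of the growth kinase complex mTORC1, had 351 and 426 scaled reads in Slpi1U1 and 668 to 1767 in the other 6 libraries. It was 2.66-fold lower (−0.85 ± 0.10, SE, limma adjusted p = 0.0003033), and its replicates were further apart than those of Chac1, at 1767 and 1192 within Slpi2. Without the filter on low values Ddit4 was not called (limma adjusted p = 0.08622). Sesn2, a leucine sensor that also restrains mTORC1, was weakly expressed at 76 and 81.9 scaled reads in Slpi1U1, 136 and 142 in Slpi4, 158 and 159 in Slpi1U2, and 228 and 255 in Slpi2. It was 2.27-fold lower, which the compressed scale gives as −0.38 (limma, adjusted p = 2.905e-05).

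Nupr1, a stress-induced nuclear protein, had 566 and 659 scaled reads in Slpi1U1 and 833 to 1493 elsewhere, 1.8-fold lower (−0.55). Stc2, a secreted glycoprotein made under cell stress, had 256 and 241 against 343 to 601 (1.81-fold lower, −0.42). Jdp2, a repressor of the AP-1 family, had 221 and 230 against 342 to 472 (1.76-fold, −0.39). Eif4ebp1, which holds back cap-dependent translation, was lower by 1.38-fold (−0.39). These 4 genes each passed against all 3 lines, with both Slpi1U1 libraries below the other 6.

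The transcription factor genes Atf5 (−0.31, limma adjusted p = 0.0355) and Atf3 (−0.27, 0.006776) were called lower, but their libraries overlapped. Without the Slpi2 line neither Atf5 (limma adjusted p = 0.3346) nor Atf3 (0.3359) was called. Atf3 in Slpi1U1, at 276 and 222 scaled reads, stood level with Slpi4, at 274 and 240, and Atf5 lost its call without Slpi1U1 replicate 1 (limma adjusted p = 0.3699), without Slpi2 replicate 1 (0.1159) and without Slpi4 replicate 2 (0.07116). Ppp1r15b, a subunit of the phosphatase that resets eIF2, was called as well (−0.22, limma adjusted p = 0.007444) but not without Slpi1U1 replicate 1 (0.08984). Its stress-induced relative Ppp1r15a (−0.09), the C/EBP partners Cebpb (−0.15) and Cebpg (−0.11), and the eIF2 kinases Eif2ak3 (0.05) and Eif2ak4 (0.05) did not pass. Cebpb passed only without Slpi1U1 replicate 2 (limma adjusted p = 0.00685). Other gene models share 20.7% of the exon bases of Cebpb and 11.4% of those of Ppp1r15b. Ppp1r15b also lost its call without the Slpi2 line (limma adjusted p = 0.1411).

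The other 4 regulators were below the limit for testing. Ddit3, which encodes the pro-apoptotic factor CHOP, was closest to it, with 67.7 and 65 scaled reads in Slpi1U1, 100 and 82.3 in Slpi4, 117 and 103 in Slpi1U2, and 162 and 157 in Slpi2. Both Slpi1U1 libraries were the lowest. Fgf21, Gdf15 and Vldlr had at most 14.3 scaled reads in any library.

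**Figure D3:**
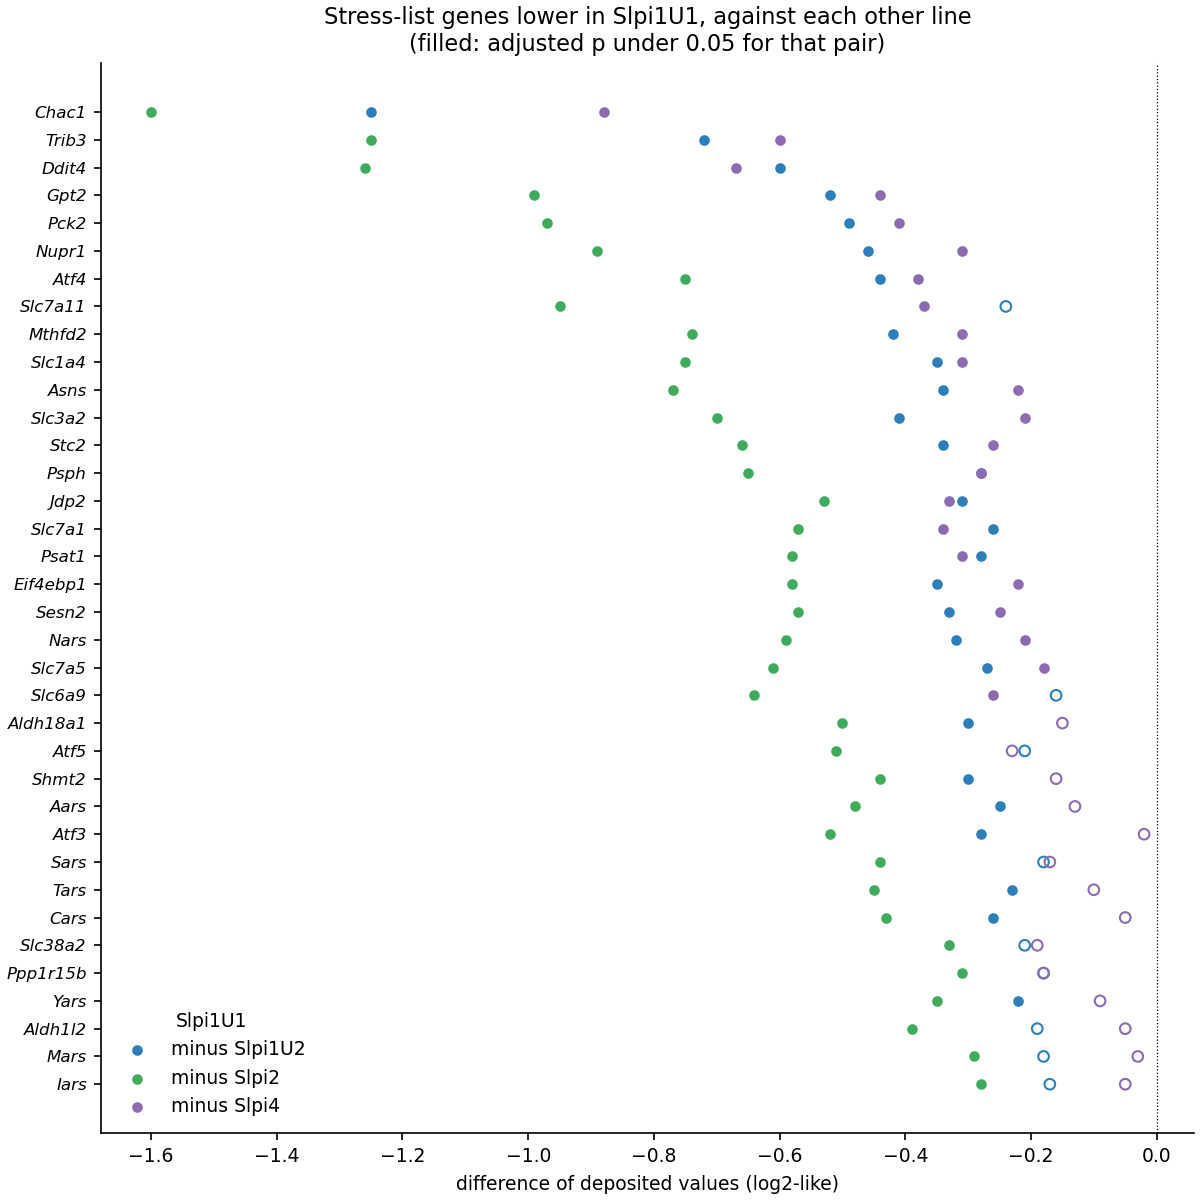
Difference of Slpi1U1 from each other line (horizontal axis, deposited log2-like units) for the 36 stress-list genes called lower (vertical axis, in order of their overall difference). Filled points passed at an adjusted p under 0.05 for that pair. The differences from Slpi2 lie furthest left for every gene, and open points appear mainly for Slpi4 and Slpi1U2 in the lower part.

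The enzymes of amino acid and one-carbon metabolism had 9 of 14 called lower (64.3%, against 0.916% of all genes tested), with a median of −0.31. Without the filter on low values 8 of 17 were called lower, against 0.167% of all genes tested. Gpt2, mitochondrial alanine transaminase, had 496 and 467 scaled reads in Slpi1U1, 754 and 814 in Slpi4, 829 and 874 in Slpi1U2, and 1387 and 1287 in Slpi2 (2.06-fold lower; −0.65 ± 0.04, SE; limma, adjusted p = 6.081e-07). Pck2, mitochondrial phosphoenolpyruvate carboxykinase, had 696 and 637 against 1006 to 1724 (1.9-fold lower, −0.62). Both followed the order of the marker genes and passed against each line.

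In serine synthesis the last steps were called and the first was not. Psat1, the second enzyme, had 7914 and 8328 scaled reads in Slpi1U1 and 9913 to 12398 in the other lines (1.33-fold lower, −0.39). Psph, the phosphatase that completes serine, had 1230 and 1329 against 1596 to 2318 (1.44-fold lower, −0.40), and 10.4% of its exon bases are shared with Cct6a. Phgdh, the entry enzyme, was at 953 scaled reads on average in Slpi1U1 and 1030 in the others (−0.08, limma adjusted p = 0.3038), and the difference between the steps was not tested.

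In mitochondrial one-carbon metabolism, Mthfd2, a folate dehydrogenase, had 1454 and 1514 scaled reads against 1924 to 2842 (1.54-fold lower, −0.49). Shmt2, the mitochondrial serine hydroxymethyltransferase, was at −0.30 (limma, adjusted p = 0.0008113) and its cytosolic counterpart Shmt1 at 0.03 (0.7041). Aldh18a1, which starts proline synthesis, was at −0.32 (limma, adjusted p = 0.000497). Aldh1l2, a mitochondrial formyl-folate enzyme, was at −0.21 (0.04083), a call lost under several settings, with 14.1% of its exon bases shared with another gene model and an adjusted p of 0.1795 without Slpi1U1 replicate 2. Against Slpi4 alone neither Shmt2 (−0.16) nor Aldh18a1 (−0.15) passed. Without the Slpi2 line both lost their calls (limma adjusted p = 0.06123 for each), as did Aldh1l2 (0.4297). Got1 (−0.14), Glul (−0.13), which makes glutamine, and Mthfd1l (−0.07) were not called, though Glul passed without Slpi1U1 replicate 2 (limma adjusted p = 0.0332).

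Cth, Pycr1 and Cbs fell under the limit for testing. Cth, the last enzyme of cysteine synthesis, had 95.8 and 85.5 scaled reads in Slpi1U1 and 93.9 to 143 elsewhere. Pycr1, which completes proline, had 41.6 and 50.6 against 45.5 to 83.6, so its libraries overlapped, and Cbs had at most 8.4 in any library.

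Of 11 transporters tested, 7 were called lower (63.6%, against 0.916% of all genes tested), with a median of −0.35. Without the filter on low values 6 of 14 were called lower, against 0.167% of all genes tested. Slc7a11, which imports cystine in exchange for glutamate, had 880 and 732 scaled reads in Slpi1U1, 956 and 1089 in Slpi1U2, 1180 and 1132 in Slpi4, and 1861 and 1996 in Slpi2. It was 1.7-fold lower (−0.52 ± 0.05, SE; limma, adjusted p = 3.174e-05), but against Slpi1U2 the difference of −0.24 did not pass (0.1284). Its partner chain Slc3a2 had 1886 and 1965 scaled reads against 2263 to 3415 (1.46-fold lower, −0.44) and passed against each line. Slc7a5, which pairs with the same chain to import leucine and other large neutral amino acids, had 1970 and 1945 against 2246 to 3292 (1.36-fold lower, −0.35).

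Slc1a4, a carrier of alanine, serine and cysteine, had 740 and 750 scaled reads in Slpi1U1 and 1006 to 1540 in the other lines (1.62-fold lower, −0.47). Slc7a1, the arginine and lysine importer, had 2800 and 3028 against 3565 to 4613 (1.37-fold, −0.39). The glycine carrier gene Slc6a9 was at −0.35 (limma, adjusted p = 0.000153), but 30.2% of its exon bases are shared with other gene models, so its count is uncertain. Slc38a2, which takes up small neutral amino acids, was at −0.24 (limma, adjusted p = 0.005897) and passed against Slpi2 alone. Without the Slpi2 line neither Slc6a9 (limma adjusted p = 0.07044) nor Slc38a2 (0.125) was called. Slc1a5 (−0.14), Slc38a7 (−0.14), Slc38a1 (−0.10) and Slc7a6 (0.08) did not pass, and Slc38a7 passed only without Slpi1U2 replicate 2 (limma adjusted p = 0.04491). Slc36a4, Slc7a3 and Slc43a1 were too low to test, with Slc36a4 at 93.9 to 96.8 scaled reads in Slpi1U1 and 88.5 to 108 elsewhere.

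All 20 cytosolic aminoacyl-tRNA synthetases, which load each amino acid onto its tRNA, could be tested. Of these 8 were called lower (40%, against 0.916% of all genes tested). Without the Slpi2 line 1 of the 20, Nars, was called (median −0.068), against 0.295% of all genes tested called lower. Without the filter on low values 4 were called lower, against 0.167% of all genes tested. Nars, for asparagine, differed most, with 7324 and 7037 scaled reads in Slpi1U1, 8428 and 8278 in Slpi4, 8990 and 9103 in Slpi1U2, and 10885 and 11143 in Slpi2 (1.32-fold lower; −0.37 ± 0.04, SE; limma, adjusted p = 4.059e-05). Aars for alanine (−0.29), Tars for threonine (−0.26), Sars for serine (−0.26), Cars for cysteine (−0.25) and Yars for tyrosine (−0.22) followed, and Aars shares 15.1% of its exon bases with other gene models. Without the Slpi2 line these 5 lost their calls, with limma adjusted p-values of 0.07225, 0.1575, 0.1751, 0.1974 and 0.2125 in the same order. Iars for isoleucine (−0.17, limma adjusted p = 0.03565) and Mars for methionine (−0.17, 0.03778) were close to the threshold, and each lost its call in every 1-library omission but Mars without Slpi1U2 replicate 2. The median over the 20 was −0.12, and the other 12 lay between −0.19 and 0.07. Lars, at −0.19, missed the threshold (limma, adjusted p = 0.05727) and passed without Slpi1U2 replicate 1 (0.03274). Against Slpi4, where 0.926% of all genes tested were called lower, Nars (−0.21, limma adjusted p = 0.03155) was the only synthetase called. There were 11 called lower against Slpi2, where 2.44% of all genes tested were, and 5 against Slpi1U2, where 0.421% were.

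By pairs of lines, in fits that share the Slpi1U1 libraries, 67 genes were called against Slpi1U2 (0.705%), 407 against Slpi2 (4.28%) and 210 against Slpi4 (2.21%). Of the 62 tested stress genes, 27 were lower than in Slpi1U2 (0.421% of all genes tested), with a median of −0.192. Against Slpi2 there were 42 (2.44%), with a median of −0.378, and against Slpi4 there were 22 (0.926%), with a median of −0.117. Against Slpi1U2 the 27 stress genes stood among 40 genes called lower. The calls against Slpi4 were 122 higher and 88 lower, and 154 higher and 71 lower when library medians were set equal. Without Slpi4 replicate 2 they came to 54 and without Slpi1U1 replicate 2 to 692. Those against Slpi1U2 came to 22 without Slpi1U2 replicate 1 and 197 without Slpi1U1 replicate 2, and those against Slpi2 to 109 without Slpi2 replicate 1 and 794 without Slpi1U1 replicate 2.

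Outside the 4 lists, few genes of related stress pathways were called, where 0.916% of all genes tested were called lower. Of 19 endoplasmic reticulum chaperone and unfolded protein response genes only Herpud1, a membrane protein of the degradation machinery, was called. It had 508 and 425 scaled reads in Slpi1U1, 676 and 692 in Slpi4, 790 and 810 in Slpi1U2, and 1079 and 1050 in Slpi2 (1.82-fold lower; −0.53 ± 0.04, SE; limma, adjusted p = 4.499e-06). The median of that list was 0.02. Of 12 p53 targets only Gadd45a, a growth arrest gene, was called, with 284 and 279 scaled reads against 420 to 731 (1.88-fold lower, −0.47), and it shares 19.1% of its exon bases with E230016M11Rik. Of 18 hypoxia and glycolysis genes, Vegfa, the angiogenic growth factor (−0.20), and Ndrg1 (−0.18) were lower, with a list median of 0. Without the Slpi2 line neither Vegfa (−0.13, limma adjusted p = 0.2871) nor Ndrg1 (−0.07, 0.5813) was called. Vegfa lost its call without Slpi1U1 replicate 1 (limma, adjusted p = 0.08227), as did Ndrg1 (0.2332), which lost it in 5 other omissions too.

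No member was called in the lists of heat shock (10 tested), cholesterol synthesis (22), oxidative stress (17), NF-kappaB and inflammatory (15), interferon-stimulated (11) or BMP target genes (4). The same held for DNA replication (21), mitosis (20), immediate early (16), YAP and TEAD target (9), epithelial (14), mesenchymal (10) and ribosome biogenesis genes (20). Their medians lay between −0.02 and 0.04, and adjusted p-values are again from limma over all 9499 genes. Among all genes tested 1.47% were called, 0.916% lower and 0.558% higher. At that share lists of this size would hold few calls or none. The 35 cytosolic ribosomal protein genes had none called either, with a median of −0.14, and Slpi1U1 had the lowest line mean for 28 of them. That result turned on single libraries: without Slpi1U1 replicate 2, 23 of the 35 were called lower (median −0.248, against 4.61% of all genes tested), without Slpi1U1 replicate 1 none was (median −0.033), and without the Slpi1U2 line 7 were (median −0.169, against 1.88%). Counts of single ribosomal protein genes are uncertain, since many have pseudogene copies. Of 15 small RNA pathway genes only Tnrc6a, a scaffold of the silencing complex, was called (0.19, higher; limma, adjusted p = 0.01594), and it lost its call without Slpi1U1 replicate 1 (0.1987) and without Slpi2 replicate 1 (0.0628). Of 15 proteases and inhibitors only Serpine2, an extracellular inhibitor, was called (0.22, higher; limma, adjusted p = 0.03454), with 10878 and 10308 scaled reads in Slpi1U1 and 10487 and 10070 in Slpi4, which overlapped. That call was lost without Slpi1U1 replicate 1, Slpi1U2 replicate 1, Slpi2 replicate 1 or 2, and Slpi4 replicate 2. Without the Slpi2 line neither Tnrc6a (limma adjusted p = 0.1296) nor Serpine2 (0.2304) was called.

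**Figure D4:**
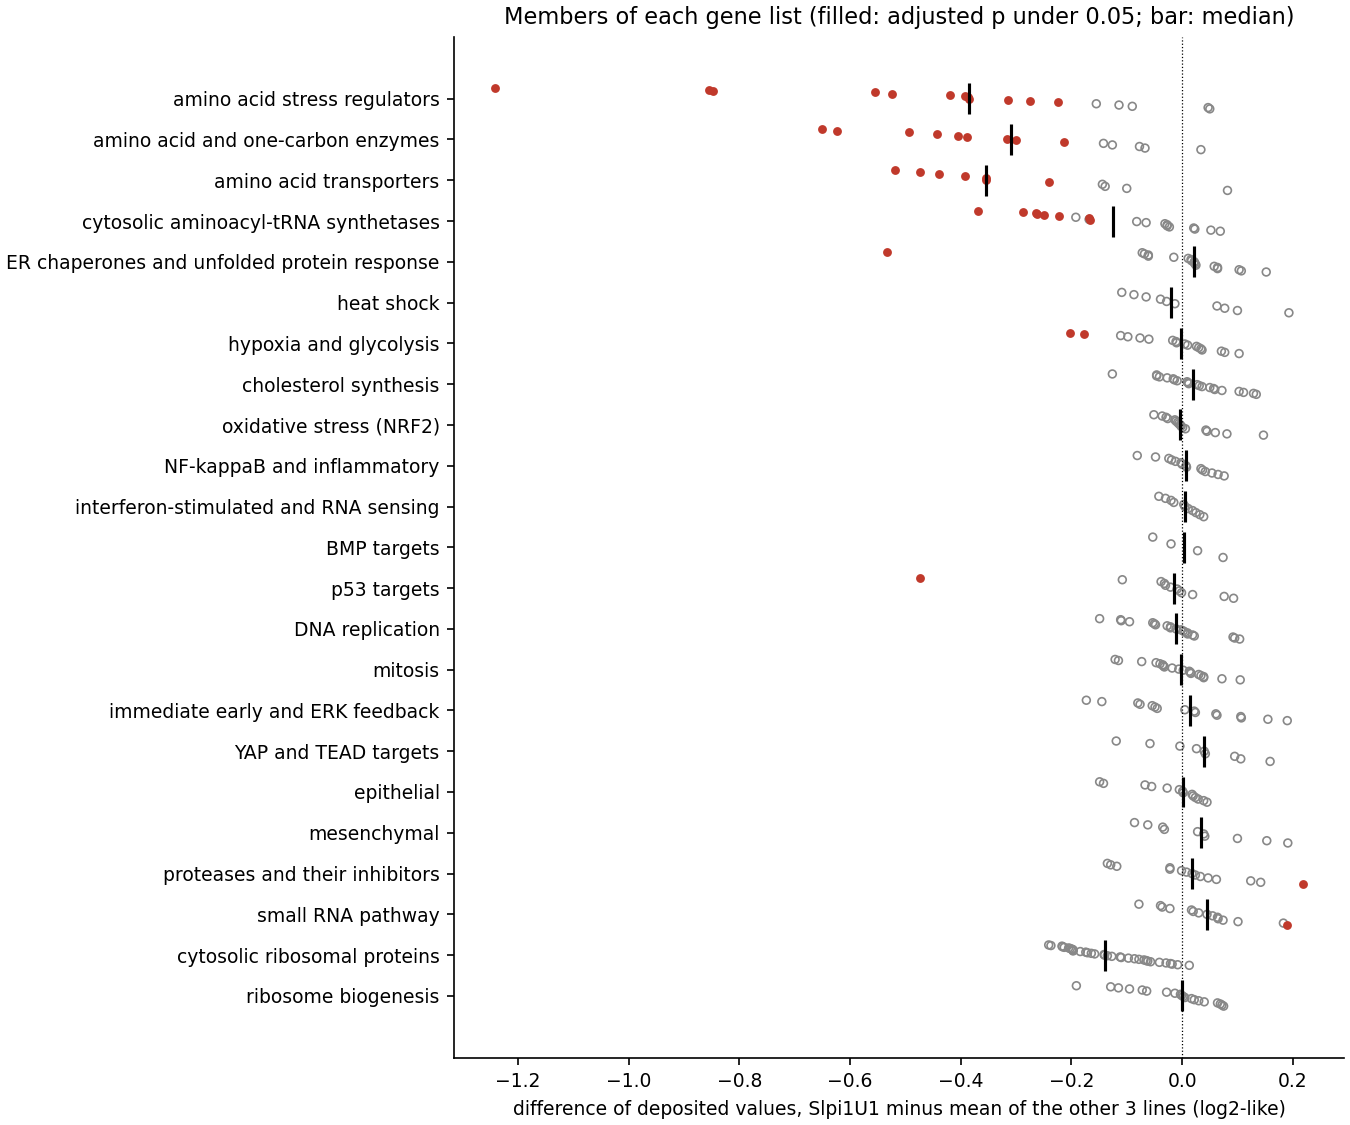
Difference between Slpi1U1 and the mean of the other 3 lines (horizontal axis, deposited log2-like units) for each tested member of 23 gene lists (vertical axis). Filled points passed at an adjusted p under 0.05 and bars are list medians. The 4 amino acid stress lists at the top hold 36 of the filled points, and the other lists centre near 0 except the ribosomal proteins, at −0.14.

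The genes higher in Slpi1U1 differed less, and of the 12 named only Slc5a3 and Prkx passed against Slpi1U2, where 0.284% of all genes tested were called higher, 1.84% against Slpi2 and 1.28% against Slpi4. Ccnb1ip1, a ubiquitin ligase of meiotic recombination, had 1507 and 1330 scaled reads in Slpi1U1, 1201 and 1283 in Slpi1U2, 876 and 845 in Slpi2, and 915 and 825 in Slpi4 (0.39 ± 0.05, SE; limma, adjusted p = 0.0001798). Slpi1U1 was above all 6 libraries, but its difference from Slpi1U2 did not pass (0.14, limma adjusted p = 0.3647), and 12.4% of its exon bases are shared with the abundant RNA gene Rpph1. Mir17hg, the host transcript of the miR-17 cluster, had 502 and 503 scaled reads in Slpi1U1, 389 and 437 in Slpi1U2, 305 and 343 in Slpi2, and 352 and 338 in Slpi4 (0.27). It did not pass against Slpi1U2 (0.16, limma adjusted p = 0.2444).

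Slc5a3, the myo-inositol transporter, had 5846 and 5776 scaled reads in Slpi1U1, 5546 and 5259 in Slpi4, 4640 and 4889 in Slpi1U2, and 3939 and 3993 in Slpi2 (0.29). It was called against Slpi1U2 and Slpi2 and not against Slpi4 (0.10, limma adjusted p = 0.2816). Prkx, a kinase related to protein kinase A, had 723 and 681 against 499 to 639 (0.21) and was called against Slpi1U2 and Slpi4 and not against Slpi2 (0.11, 0.1937). Skp2, which marks cell cycle inhibitors for degradation, was at 0.21, and Lrp8, a receptor of the LDL receptor family, at 0.23. The other 6 of the 12 named from the top were Phxr4 (0.31), Eml5 (0.27), Msl1 (0.22), Clcf1 (0.21), Ccnl1 (0.20) and Ttc9 (0.20), all above the 6 other libraries. Eml5 shares 10.4% of its exon bases with other gene models and Clcf1 8.17%. Without Slpi1U1 replicate 1 the calls of Eml5, Lrp8, Clcf1, Prkx, Skp2, Ccnl1 and Ttc9 were lost, with limma adjusted p-values of 0.1102, 0.1154, 0.09666, 0.1806, 0.08466, 0.4318 and 0.2483. Ccnl1 lost its call without either Slpi2 library as well (0.1037 and 0.09213), without Slpi1U2 replicate 1 (0.07006) and without Slpi4 replicate 2 (0.07892), and Ttc9 without Slpi2 replicate 2 (0.05452). Without the Slpi2 line Slc5a3 (0.1554), Eml5, Lrp8, Msl1, Clcf1, Skp2, Ccnl1 and Ttc9 were not called, with adjusted p-values up to 0.4674.

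Across the series, Chac1, Trib3 and Asns in Slpi1U1 stood between the other Slpi-directed lines and the lines with the lowest levels, while Ddit4 did not keep this order with respect to 66708. Chac1 was at 23.2 ± 2.27 CPM in Slpi1U1 (SD, n = 2), 60.3 in Slpi4, 87.6 in Slpi1U2 and 116 in Slpi2. It was at 13.2 in 66708 and at 10 to 10.9 in the 4 Mgp-directed shERWOOD lines, and at 86.2 in 88943, the line of the Mgp table selected with puromycin. Trib3 was at 7.02 ± 1.29 CPM in Slpi1U1, 19.2 to 42 in the other 3 Slpi-directed lines, 4.32 in 66708, 3.27 to 4.43 in the shERWOOD lines against Mgp, and 45.9 in 88943. Asns gave 190 ± 14.3 CPM in Slpi1U1, 222 to 339 in its comparison lines, 112 in 66708, 101 to 120 in the Mgp-directed lines and 317 in 88943. Atf4 in Slpi1U1, at 296 ± 2.06 CPM, was near 66708 (289) and the Mgp-directed lines (252 to 280), and below Slpi4 (388), Slpi1U2 (413) and Slpi2 (510). Ddit4 was at 23.8 ± 3.06 CPM in Slpi1U1, below 66708 (40.4 ± 7.73) as well as Slpi1U2 (48.3), Slpi4 (50.8) and Slpi2 (89.9), and above the Mgp-directed shERWOOD lines (9.13 to 20.6). The tables were normalized separately and 66708 was outside the comparison, so these levels are given without a test.

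**Figure D5:**
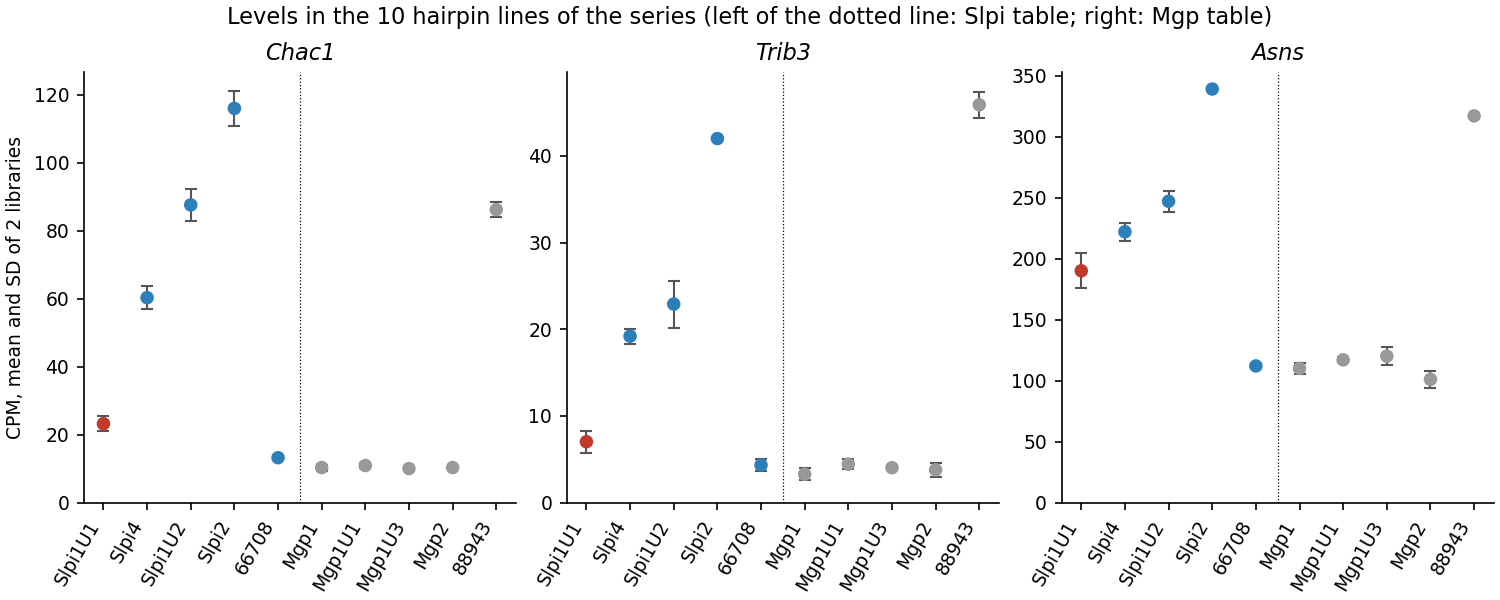
Mean CPM of Chac1, Trib3 and Asns (vertical axes, linear from 0) in the 10 hairpin lines of the series (horizontal axes), with error bars of 1 SD over 2 libraries. The dotted line separates the Slpi table on the left from the Mgp table on the right; Slpi1U1, in red, lies below Slpi4, Slpi1U2 and Slpi2 and above 66708 in each panel.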

How the data were processed

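Total RNA of transduced 4T1 cells was amplified from 100 ng (NuGEN Ovation RNA-Seq V2), sheared to about 200 bp and sequenced in 76 bp reads, per the labels' protocols. The submitters' processing notes name mm10, Bowtie2, HTSeq and DESeq without versions, and the sources used here give neither strand setting nor annotation. The authors deposited variance-stabilized values on a log2 scale, whose smallest value, 7.92, marks genes without reads. The transform was inverted, and 100% of values came out as whole reads within 0.001.

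Columns were mapped to hairpins by name, 2 per hairpin, without a link to single samples. The means model held 4 hairpins and 8 libraries, with limma's moderated, two-sided test and intensity trend (limma 3.58.1, R 4.3.3; 4 residual and 10 prior degrees of freedom). Genes with a mean at least 1 unit above the smallest value were tested, 9499 of 23480. The code was checked on simulated data. The members, the 24 gene lists and the tests were chosen with earlier results of these data known.

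Named genes were Slpi, Chac1, Trib3 and Asns, all tested stress-list members, up to 4 called members of each other list, and the 3 genes most like Chac1. To these came the 12 highest and 12 lowest called genes with both Slpi1U1 libraries outside the other 6, passing over models without a proper name. Alternatives changed the filter, the scaling, the test values, the lines or libraries included, the replicate block and the trend. Exon overlaps and positions are from GENCODE M21 (GRCm38).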

Additional observations from a re-analysis of the deposited data

How the results depend on the processing

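The replicate numbers were treated as names. With the number as a replicate block 151 genes were called, 55 higher and 96 lower, against 140. Deviations of same-numbered libraries correlated at −0.25 to 0.55 between lines, without a common sign. The share of reads from the ribosomal RNA gene Rn45s was 1.27% to 1.55% in libraries numbered 1 and 1.77% to 1.87% in those numbered 2. The numbers thus tracked a difference in this gene, and whether they mark a pairing of the libraries was not tested. Under the block 35 stress members were lower, against 1.01% of all genes tested. Atf5 (limma adjusted p = 0.06529) and Aldh1l2 (0.06545) lost their calls and Gars (0.03521) gained one.

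With hairpin means as samples, 1 line against 3, no gene was called, none of the stress-list members and none outside the other libraries. The differences of Chac1 (−1.24), Trib3 (−0.85) and Asns (−0.44) were the same by construction, and none of them passed. The spread then came from 3 line means. Without the filter 44 genes were called (9 higher, 35 lower), with 13 against Slpi1U2, 119 against Slpi2, 38 against Slpi4 and 39 outside the range of the other libraries. With a minimum of 3 units these counts were 57, 33, 187, 53 and 45. There 20 of 34 tested stress members were lower, against 1.37% of all genes tested. Fewer genes could be tested in that setting, and Slpi, Chac1 and Trib3 had no value. Without the Slpi1U2 line 314 genes were called and 296 lay outside. Without the Slpi2 line there were 40 and 34, and 21 stress members. Without the Slpi4 line 182 were called and 170 lay outside, against 108.

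Leaving out 1 library at a time gave 61 to 554 calls, 22 to 197 against Slpi1U2, 109 to 794 against Slpi2, 54 to 692 against Slpi4, 56 to 543 outside, and 32 to 35 stress members. The cause of the range was not tested. Chac1 stayed at −1.3 to −1.18, Trib3 at −0.92 to −0.79, Asns at −0.5 to −0.38 and Slpi at −0.17 to −0.1. The 78 other named genes gave 1348 values on the same side of the threshold under 20 settings, 163 that lost a call, 14 that gained one and 0 that changed sign while called. The voom fit (142 calls), quantile normalization (142), equal library medians (149), the fit with 66708 (175) and the fit without the trend (141) stayed within 1.5 times of 140. Genes under 121 scaled reads could not be tested at this depth.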

Other observations

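Several genes outside the lists also separated Slpi1U1 from some of its comparison lines; they were chosen after their values were seen, and each adjusted p is from limma over 9499 genes. Kcnq1ot1, a nuclear antisense RNA of an imprinted region, had the largest positive difference (0.47, adjusted p = 3.319e-06). It stood at 7543 and 7634 scaled reads in Slpi1U1, 7902 and 7881 in Slpi1U2, 5510 and 5338 in Slpi2, and 3588 and 3542 in Slpi4, so it was not particular to Slpi1U1. Neat1, the RNA scaffold of paraspeckles (0.25, adjusted p = 0.006776), had 4602 and 4338 scaled reads in Slpi1U1, 4268 to 4925 in Slpi1U2 and Slpi2, and 2464 and 2437 in Slpi4, the single line against which it passed. Airn (0.18) and Pvt1 (0.18) were called as well, while Malat1 (0.16, adjusted p = 0.3012) was not. Airn was highest in the Slpi1U1 libraries and passed against Slpi2 and Slpi4, not against Slpi1U2 (0.11, limma adjusted p = 0.3758). Pvt1 averaged 1600 scaled reads in Slpi1U1 and 1650 in Slpi1U2, and passed against Slpi4 alone (0.42, limma adjusted p = 0.0003457).

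Both Slc30a1 and Mt2, genes of metal handling, were lower in Slpi1U1 than in Slpi2 and in Slpi4 and did not pass against Slpi1U2. The zinc exporter gene Slc30a1 had 449 and 457 scaled reads in Slpi1U1, 537 and 489 in Slpi1U2, 683 and 732 in Slpi2, and 743 and 692 in Slpi4 (−0.30, limma adjusted p = 0.0008113). The metallothionein gene Mt2 was at −0.40 (adjusted p = 0.009866), with 533 and 775 in Slpi1U1, 753 and 669 in Slpi1U2 and 1074 to 1267 in Slpi2 and Slpi4. Mt1 did not pass (−0.24, adjusted p = 0.08023).

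Fgfbp1, whose secreted product carries fibroblast growth factors, was lower in Slpi1U1 than in each other line, with 1421 and 1414 scaled reads against 1657 to 1888 (−0.24, limma adjusted p = 0.001386). Nfat5, the transcription factor of the response to high osmolarity, was at 0.17 (limma, adjusted p = 0.0375), beside its known target Slc5a3 at 0.29. Another known target, the taurine transporter gene Slc6a6, was at −0.01 (adjusted p = 0.9339). By pairs Nfat5 passed against Slpi2 (0.24, limma adjusted p = 0.01071) and not against Slpi1U2 (0.10, 0.4862) or Slpi4 (0.18, 0.06576). Slc5a3 lost its call without the Slpi2 line (0.1554).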
